A study of Drosophila melanogaster with 6 samples.

Results

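Chromatin accessibility was examined at 10 genes of the DNA damage response in Drosophila wing imaginal discs, the larval tissue that gives rise to the adult wing. The genes were p53, tefu, mei-41, lok, grp, mre11, nbs, rad50, Irbp and Ku80. They were chosen by name for their known function, with earlier results of these data known. All 10 were found among the 13945 protein-coding genes annotated on the chromosome arms of the dm6 assembly. For each gene, the ATAC-seq peaks that touched the gene body or the 2 kb on either side of it were collected from 6 libraries. The windows of the 10 genes held 89 peaks, which merged into 17 regions of the 45905 found in the genome, and 8 of these regions had a peak in all 6 libraries, of 19441 genome-wide. All 17 regions lay in the windows of 6 genes.

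Mre11, Rad50 and Nbs form the MRN complex, which binds the ends of broken DNA and switches on ATM, a kinase whose fly gene is tefu. The fly gene of the related kinase ATR, which responds to exposed single-stranded DNA, is mei-41. These kinases act through the checkpoint kinases Chk2 (lok, also called mnk) and Chk1 (grp), which halt the cell cycle or, through the transcription factor p53, induce apoptosis of imaginal disc cells, while the Ku70 and Ku80 proteins (Irbp and Ku80) hold broken ends for non-homologous end-joining.

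In this study, wing discs with an arrested cell cycle or an induced endocycle were compared with proliferating discs. All larvae carried tub-Gal4 with tub-Gal80, a driver that is active throughout the animal once the temperature-sensitive Gal80 repressor is released, and expressed GFP (control), an RNAi against the mitotic kinase gene Cdk1 (Cdk1-i) or fzr, a gene whose product activates the anaphase-promoting complex and turns mitotic cycles into endocycles. They were kept for 7 days at 17 °C and then for 2 days at 31 °C, and were not irradiated as far as the labels say. Each genotype had 2 libraries, described as biological replicates and each made from dissected whole discs, so that the values are averages over all cell types of the disc. In the file names of 4 peak lists, Cdk1-i and fzr are interchanged relative to the labels of the samples. The labels were followed, and each statement that separates Cdk1-i from fzr would be read the other way round if the names of the lists were right.

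The lists held 36715 and 35404 peaks in the control libraries, 36617 and 36100 in Cdk1-i, and 33335 and 27119 in fzr. Replicate 2 of fzr stood apart, with the fewest peaks and 14.2 peaks on the X chromosome per 100 autosomal peaks, against 18.6 to 19.7 in the other libraries. Each peak has a fold enrichment, the ratio of its signal to the background around it. Because these ratios depend on the library, each peak was also ranked among the peaks of the same library, and its percentile is given, with the strongest peaks near 100. The number of reads behind the lists is unknown. A missing peak says only that the signal did not pass the authors' cutoff, and the 100 weakest peaks of each list had a median fold enrichment of 1.84 to 2.02. Markers of the wing disc epithelium had a peak at the 5' end in all 6 libraries for 8 of 10 genes, the exceptions being ci and hth with none, and so did 3 of 4 myoblast genes and 3 of 4 hemocyte genes but 0 of 4 fat body genes.

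Most of the 10 genes had no called peak at their 5' end. A peak within 500 bp of the 5' end was present in all 6 libraries at tefu and grp, in 4 libraries at Irbp, and in no library at the other 7 genes. Of all protein-coding genes, 25.5% had such a peak in all 6 libraries and 49.0% had one in none. The map of the peaks shows that 4 of the 10 genes, mei-41, lok, nbs and Ku80, had no peak anywhere in the gene body or the 2 kb around it in any library, which was the case for 15.7% of all protein-coding genes. No test was made of these shares, as the 10 genes are a small set chosen with earlier results of these data known. The count of 2 genes with a peak in all 6 libraries was also 2 when any single library was left out, and it fell to 1 when the peak had to lie within 250 bp of the 5' end or, in an alternative added after the data were seen, when its summit had to lie within 500 bp. By summit, 18.4% of all protein-coding genes had a peak in all 6 libraries and 55.1% in none, beside 1 and 7 of the 10 genes.

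**Figure D1:**
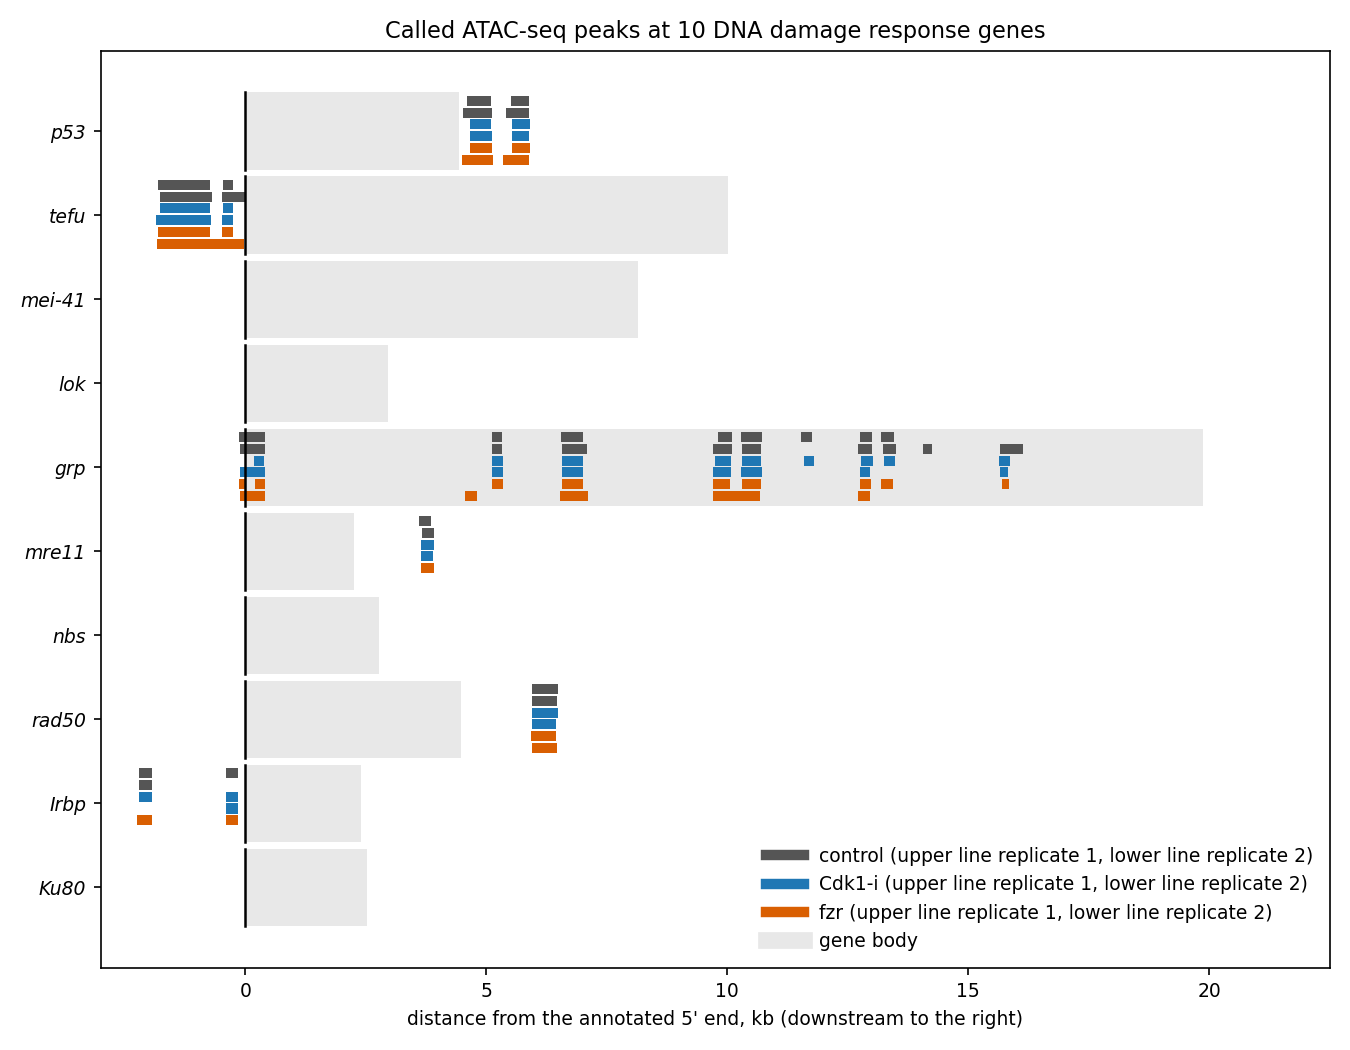
Called ATAC-seq peaks along the 10 genes, plotted by their distance in kb from the annotated 5' end (vertical line) with the gene body in light grey and 1 line for each library (grey, control; blue, Cdk1-i; orange, fzr). Of the 10 rows, 4 are empty, and grp holds 10 of the 17 regions.

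**Figure D2:**
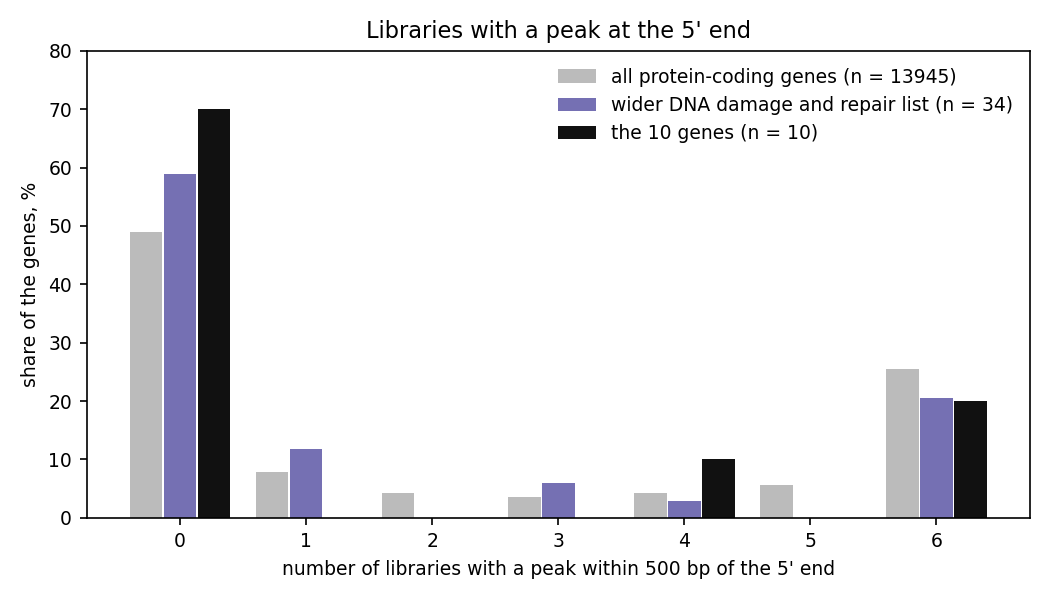
Share of genes in percent by the number of libraries, from 0 to 6, with a peak within 500 bp of the 5' end, for all 13945 protein-coding genes (grey), 34 other genes of DNA damage signalling and repair (purple) and the 10 genes (black). The black bars stand at 0, 4 and 6 libraries, with 7, 1 and 2 genes.

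The distance from the 5' end to the nearest edge of a peak was several kb at these 7 genes. Among all protein-coding genes, the median distance was between 1032 and 1230.0 bp in the 6 libraries. Over the 10 genes, the median lay between 4189 and 4487 bp. The closest peaks to p53 were 4500 to 4672 bp away, and those to Ku80 were 3914 to 3978 bp away, with little spread between libraries. For mei-41 the distance was 5627 to 5674 bp in 4 libraries but 14454 bp in control replicate 1 and 14518 bp in Cdk1-i replicate 2, so that replicates of one genotype did not share the same nearest peak. The distance plot shows a similar split at nbs, where it was 4441 to 4446 bp in control replicate 1 and both Cdk1-i libraries and 6734 to 6746 bp in control replicate 2 and both fzr libraries.

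**Figure D3:**
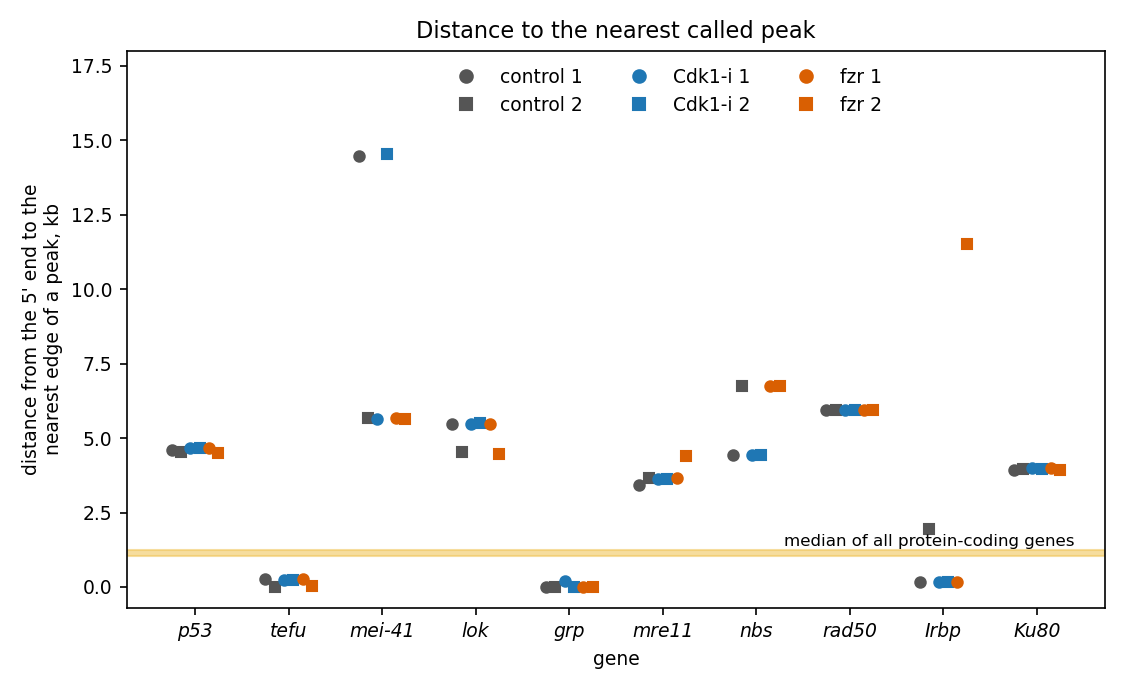
Distance in kb from the 5' end of each of the 10 genes to the nearest edge of a called peak in each library (circles, replicate 1; squares, replicate 2; grey, control; blue, Cdk1-i; orange, fzr), with the range of the median over all protein-coding genes as a yellow band. All points of p53, mei-41, lok, mre11, nbs, rad50 and Ku80 lie above the band.

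The genes of the break sensor, the MRN complex, had no peak at their own 5' ends. mre11 (FBgn0020270, 2L:11282090-11284335, plus strand), which encodes the nuclease of the complex, had 1 region in its window, located 1364 bp beyond its 3' end and 187 bp from the 5' end of Osi21, a gene of the Osiris family. It had a peak in 5 libraries, with percentiles of 43.3 and 63.9 in control, 57.1 and 60.9 in Cdk1-i and 61.3 in fzr replicate 1, and no peak in fzr replicate 2. The Cdk1-i values lay between those of the 2 control libraries. rad50, on chromosome arm 2R, encodes the coiled-coil ATPase that bridges DNA ends. Its window held 1 region, close to the 3' edge of the window and 69 bp from the 5' end of CG10344, with ppk12, which encodes an ion channel of the pickpocket family, starting on the other side. nbs (FBgn0261530, 3L:9720414-9723194, minus strand), the regulatory subunit that docks ATM, had no peak in its window, although its 5' end lies only 229 bp from that of defl, which encodes a subunit of the Integrator complex.

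The genes of the kinases that read the damage differed in their peaks. mei-41 (FBgn0004367, X:16391698-16399850, plus strand) had no peak in its window in any library. Its 5' end lies 260 bp from that of TH1, a subunit of the negative elongation factor, which is transcribed in the opposite direction and had no peak at its 5' end either. A head-to-head neighbour within 1000 bp was common among the 10 genes, with 6 of 10, beside 33.3% of all protein-coding genes. Of the 4650 genes with such a neighbour, 26.7% had a 5' end peak in all 6 libraries and 43.2% in none, and among the 6 genes here these numbers were 1 (tefu) and 4 (mei-41, lok, nbs and rad50).

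The gene of the ATM kinase, tefu (FBgn0045035, 3R:15232212-15242236, minus strand), is transcribed away from Hsc70-4, a constitutively expressed chaperone gene of the Hsp70 family whose 5' end is 451 bp from that of tefu. A peak lay between the 5' ends in every library, with its summit at −339 bp from the 5' end of tefu in 4 libraries and at −342 bp in fzr replicate 1. This summit lay nearer to the 5' end of Hsc70-4 than to that of tefu, so the peak cannot be assigned to tefu alone. In fzr replicate 2 a single peak of 1807 bp spanned this site and the stronger site inside Hsc70-4, with its summit at −1455 bp. The fold enrichment was 6.22 and 6.43 in control, 7.41 and 6.69 in Cdk1-i, and 9.20 and 11.1 in fzr. The percentiles were 83.9 and 89.3 in control, 83.7 and 81.0 in Cdk1-i, and 87.2 and 98.6 in fzr, the last value being that of the broad peak. The order of Cdk1-i and control turned with the scale, both Cdk1-i libraries being above both controls by fold enrichment and below them by percentile. The reference sequence of the intergenic summit is given because most of it lies in a peak of every list. It is centred on the median summit, spans 3R:15242475-15242675 of dm6 and is written on the strand of tefu. Capitals mark the letters of a TATA box on the other strand, that of Hsc70-4, between the summit and the 5' end of Hsc70-4. Such letters were found in 7.62% of all windows of this length at regions with a peak in all 6 libraries.
tefu and Hsc70-4, summit between the 5' ends: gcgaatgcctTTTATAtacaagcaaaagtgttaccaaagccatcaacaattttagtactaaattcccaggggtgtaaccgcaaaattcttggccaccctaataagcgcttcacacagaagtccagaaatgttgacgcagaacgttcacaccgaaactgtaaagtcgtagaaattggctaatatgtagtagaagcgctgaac

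Of the checkpoint kinase genes, grp had the most peaks of the set and lok had none. lok (FBgn0019686, 2L:20061422-20064381, plus strand) encodes Chk2 and starts 52 bp from barr, a gene for a condensin subunit. The nearest peak to its 5' end was 4474 to 5504 bp away. grp (FBgn0261278, 2L:16680054-16699926, plus strand) encodes Chk1 and is the longest gene of the set at 19873 bp. It held 10 of the 17 regions, 4 of them with a peak in all 6 libraries, and its 3 annotated transcript starts were covered unequally. The outermost start, which grp shares with squ, a gene of the germline piRNA pathway, had a peak in all 6 libraries. The start of the transcript RA, 5336 bp downstream, had a peak in 5 libraries, and that of RD, 15470 bp downstream, in 4.

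At the outermost start of grp, the fold enrichment was 9.51 and 5.08 in control, 3.59 and 5.83 in Cdk1-i, and 7.03 and 4.38 in fzr. The percentiles were 94.1 and 81.9 in control, 42.8 and 75.5 in Cdk1-i, and 78.9 and 73.1 in fzr. By percentile the control libraries were above all others, but by fold enrichment the groups overlapped. The peak had its summit within 14 bp of the 5' end in 4 libraries, at 362 bp downstream in control replicate 1 and at 326 bp downstream in Cdk1-i replicate 1. In the latter library the peak was only 207 bp long and began 189 bp downstream of the 5' end, so that its low percentile is that of the downstream part alone. The peak at the RA start had fold enrichments of 10.7 and 4.55 in control, 11.0 and 8.68 in Cdk1-i and 9.38 in fzr replicate 1, and it was not called in fzr replicate 2. Here the control libraries differed from each other by more than the genotypes did in their means.

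Inside grp, 3 intronic regions had a peak in all 6 libraries. The region with its summit 6895 bp from the 5' end had percentiles of 84.8 and 94.1 in control, 86.4 and 87.7 in Cdk1-i, and 88.6 and 93.7 in fzr, so that all other libraries lay within the range of the 2 control values. The region at 10519 bp had percentiles of 80.4 and 82.9 in control, 90.3 and 90.9 in Cdk1-i, and 89.5 and 85.4 in fzr, with both control libraries below the other 4. The region at 12851 bp went the other way, with percentiles of 66.9 and 68.3 in control, 61.8 and 49.2 in Cdk1-i, and 45.9 and 21.0 in fzr. Its fold enrichment was 4.41 and 3.86 in control, 4.68 and 3.78 in Cdk1-i, and 3.80 and 2.35 in fzr, so the groups overlapped on that scale. Peaks of one gene therefore ranked higher at one site and lower at another within the same libraries. The reference sequences of these last regions are given on the strand of grp, centred on the median summit, to show what lies at the sites that moved in opposite directions (2L:16690473-16690673 and 2L:16692805-16693005 of dm6). Capitals mark a run of the letters bound by GAGA factor on the other strand, which 7.24% of all such windows hold, and the other window held none of the motifs searched.
grp intron, higher outside the control: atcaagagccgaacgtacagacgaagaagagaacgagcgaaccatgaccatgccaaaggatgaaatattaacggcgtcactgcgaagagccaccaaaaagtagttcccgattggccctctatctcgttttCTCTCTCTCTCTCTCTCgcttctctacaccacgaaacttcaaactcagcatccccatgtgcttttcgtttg
grp intron, lower outside the control: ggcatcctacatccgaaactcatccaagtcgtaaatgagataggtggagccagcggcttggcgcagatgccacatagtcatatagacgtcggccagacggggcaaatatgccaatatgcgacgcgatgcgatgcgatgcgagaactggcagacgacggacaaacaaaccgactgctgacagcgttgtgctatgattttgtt

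**Figure D4:**
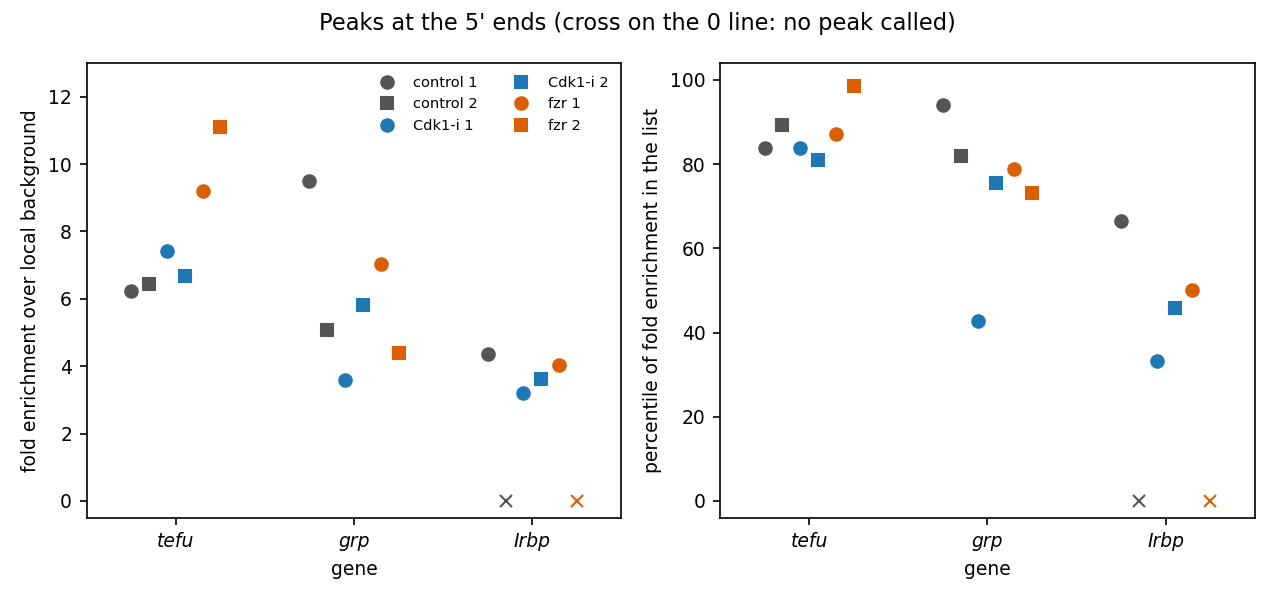
Fold enrichment over the local background (left) and percentile of that ratio in the list (right) of the peak at the 5' ends of tefu, grp and Irbp in each library (circles, replicate 1; squares, replicate 2; grey, control; blue, Cdk1-i; orange, fzr; crosses on the 0 line, no peak called). At grp the control percentiles of 94.1 and 81.9 are above those of the other libraries, while the fold enrichments overlap.

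p53 (FBgn0039044, 3R:23049657-23054082, minus strand), the transcription factor at the end of this pathway, has 3 annotated transcript starts, and none of them had a peak within 500 bp in any library. Its window held 2 regions, both beyond the 3' end of the gene and present in all 6 libraries. They lie 125 and 886 bp from the 5' end of CG17121, the next gene on the same strand, which itself had a 5' end peak in all 6 libraries. The region closer to CG17121 had percentiles of 89.5 and 93.8 in control, 94.0 and 92.7 in Cdk1-i, and 92.0 and 90.8 in fzr. The region closer to p53 (3R:23048943-23049582) had percentiles of 93.3 and 94.5 in control, 92.5 and 93.0 in Cdk1-i, and 91.1 and 88.4 in fzr. By fold enrichment the latter had 8.99 and 8.28 in control, 10.4 and 10.4 in Cdk1-i, and 10.8 and 6.40 in fzr, so that Cdk1-i was above the control on that scale and below it by percentile. In percentiles, the first set overlapped between control and both other genotypes, and in the other set the genotypes did not overlap although all values lay between 88.4 and 94.5. Ranked by −log10 p instead of fold enrichment, the genotypes overlapped there too, with mean percentiles of 97.2 in control, 97.6 in Cdk1-i and 96.0 in fzr.

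The end-joining genes had few peaks. Irbp (FBgn0011774, 3R:11410047-11412440, plus strand), encoding Ku70, lies head to head with mgr, a gene for a prefoldin subunit, at 172 bp. A peak at 3R:11409639-11409893, with its summit in an intron of mgr, was called in 4 libraries with fold enrichments of 4.36 in control replicate 1, 3.21 and 3.61 in Cdk1-i and 4.03 in fzr replicate 1. It was absent from the lists of control replicate 2 and fzr replicate 2, so that its presence did not follow the genotype. The other region of the window, 2 bp from the 5' end of mRpL40, which encodes a mitochondrial ribosomal protein, was also called in 4 libraries, with percentiles of 71.7 and 49.5 in control, 39.1 in Cdk1-i replicate 1 and 57.2 in fzr replicate 1. Ku80 (FBgn0041627, 2L:15768630-15771159, minus strand), its partner in the Ku heterodimer, had no peak in its window.

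The 5' ends of all 10 genes, most of them without a peak, were searched for letters of known promoter motifs. The window from 250 bp before to 50 bp after the 5' end was read on both strands for the DNA replication-related element (DRE, TATCGATA), E2F sites (TTTCCCGC or TTTGGCGC), an E-box (CAGCTG), the GAGA motif (GAGAGAG), the TATA box (TATAAA) and Ohler motif 1. The DRE, bound by the factor DREF and common in promoters of replication and growth genes, was found at p53, mei-41 and Ku80, in 3 of 10 genes and in 9.36% of all promoters. p53 had it in 2 copies, at −68 and −57 bp, mei-41 at −19 bp and Ku80 at −35 bp. The TATA box letters occurred at 8 of the 10 genes and in 45.8% of all promoters, an E2F site at tefu and in 3.76%, and the E-box, the GAGA motif and Ohler motif 1 at none of the 10 and in 17.7%, 5.87% and 4.50%. A DRE did not go with a missing peak in general, since 43.7% of the 1305 promoters with a DRE had no 5' end peak in any library and 49.5% of those without one. The sequences just before the 5' ends of these 3 genes are given on the strand of the gene, ending 1 base before it, with the DRE in capitals (3R:23054083-23054332, X:16391448-16391697 and 2L:15771160-15771259 of dm6). For comparison, that of grp (2L:16679804-16680053), a gene with a 5' end peak in all 6 libraries, is shown. Capitals mark the letters of a TATA box on the other strand, at −218 bp. These letters lay outside the peak in every library, since the grp peaks began at 2L:16679931 or farther downstream. In Cdk1-i replicate 1 the peak began at 2L:16680243, beyond the end of the printed sequence. Only exact matches were marked, and the grp sequence holds near matches to the DRE in lower case, such as aatcgata. A match of letters does not show that a factor is bound.
p53, no peak: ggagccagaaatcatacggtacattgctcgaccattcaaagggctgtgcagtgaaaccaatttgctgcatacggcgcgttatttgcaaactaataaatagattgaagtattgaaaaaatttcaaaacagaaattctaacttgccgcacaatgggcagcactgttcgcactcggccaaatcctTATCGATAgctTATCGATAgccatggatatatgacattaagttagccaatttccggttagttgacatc
mei-41, no peak: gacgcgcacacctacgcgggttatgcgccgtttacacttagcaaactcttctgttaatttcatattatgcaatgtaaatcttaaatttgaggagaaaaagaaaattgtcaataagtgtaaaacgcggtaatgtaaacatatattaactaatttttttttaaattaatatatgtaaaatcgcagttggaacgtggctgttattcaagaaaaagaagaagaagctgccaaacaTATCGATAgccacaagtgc
Ku80, no peak: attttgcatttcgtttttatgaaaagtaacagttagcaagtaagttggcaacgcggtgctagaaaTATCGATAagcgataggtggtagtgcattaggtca
grp, peak in all 6 libraries: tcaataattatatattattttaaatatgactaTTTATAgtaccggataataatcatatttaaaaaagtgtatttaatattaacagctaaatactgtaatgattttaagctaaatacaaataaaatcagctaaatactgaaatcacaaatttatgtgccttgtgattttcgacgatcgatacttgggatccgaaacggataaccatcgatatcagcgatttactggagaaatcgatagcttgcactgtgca

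The genotypes were then compared at the 8 regions with a peak in all 6 libraries. In Cdk1-i, 6 of the 8 regions had percentiles that did not overlap those of the control, 2 higher and 4 lower. Over all 19441 such regions of the genome, 44.7% did not overlap, 23.7% being higher and 21.1% lower. The higher regions were the site inside Hsc70-4 next to tefu and the grp intron at 10519 bp, and the lower ones were the grp 5' end, the grp intron at 12851 bp, the region of p53 nearer the gene and the region of rad50. Both higher regions also held a weaker site that was not scored. The first held the 5' end peak of tefu, with percentiles of 83.7 and 81.0 in Cdk1-i and 83.9 and 89.3 in control. The other held a site near 9877 bp, with 68.9 and 64.9 in Cdk1-i and 63.9 and 60.4 in control. In fzr, again 6 of 8 regions did not overlap the control, 3 higher and 3 lower, beside 41.7% genome-wide, with 8.53% higher and 33.2% lower. Between fzr and Cdk1-i, 6 of 8 regions did not overlap, 2 higher and 4 lower in fzr, beside 51.7%, with 10.2% higher and 41.4% lower. The balance of higher and lower regions between fzr and Cdk1-i changed with the length of the lists and with the ranking. With 27119 peaks in every list, 3 of the 8 regions were higher and 1 lower in fzr than in Cdk1-i (20.7% and 25.2% genome-wide), and 3 were higher and 3 lower than in control (17.7% and 19.3%). Ranked by −log10 p, 2 regions were higher and 2 lower in fzr than in Cdk1-i (9.89% and 44.8%). A comparison of 2 libraries with 2 cannot give a two-sided exact permutation p below 0.333, and both comparisons with the control use the same control libraries.

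**Figure D5:**
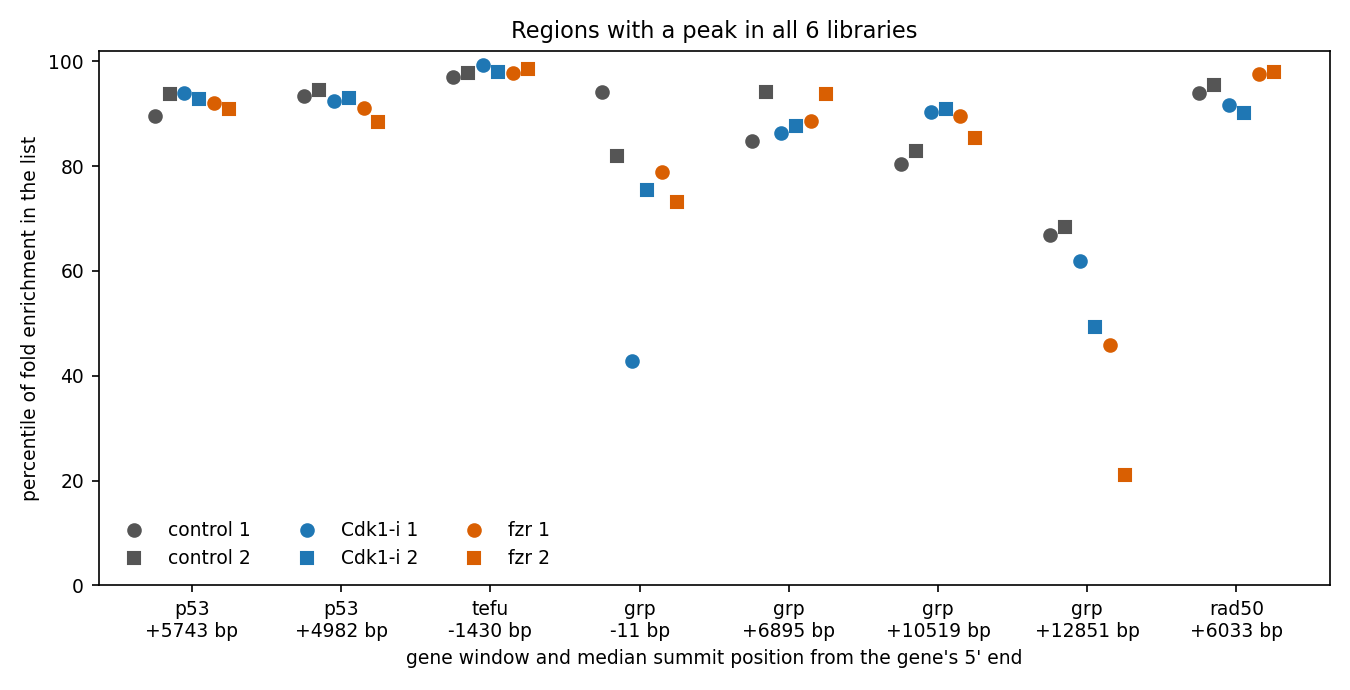
Percentile of the fold enrichment among the peaks of the same library for the 8 regions with a peak in all 6 libraries, labelled by the gene window and the position of the median summit from the 5' end of that gene (circles, replicate 1; squares, replicate 2; grey, control; blue, Cdk1-i; orange, fzr). The widest spread is at the grp regions at −11 and +12851 bp, and the rad50 region has Cdk1-i below and fzr above the control.

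Over all 3 genotypes, 15 groupings of the libraries into pairs are possible, so the smallest exact permutation p is 0.0667. Of the 8 regions, 4 reached this value, namely the p53 region nearer the gene, the grp introns at 10519 and 12851 bp and the rad50 region, beside 13.5% of all regions. None can pass a threshold of 0.05 in this design. The rad50 region was the only one of the 8 in which the genotypes departed from the control in opposite directions in every library. Its fold enrichment was 9.46 and 8.75 in control, 9.94 and 9.09 in Cdk1-i, and 16.1 and 10.4 in fzr. Its percentiles were 94.0 and 95.4 in control, 91.6 and 90.1 in Cdk1-i, and 97.5 and 98.0 in fzr. On the fold scale Cdk1-i overlapped the control, and only fzr lay above it. This region belongs by position to the start of CG10344 rather than to that of rad50, which is 5936 to 5956 bp from the nearest edge of a peak.

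At the 5' ends themselves, only tefu and grp could be compared across all 6 libraries, the peak at tefu being the one it shares with Hsc70-4. The percentile of tefu was 86.6 ± 3.81 (SD, n = 2) in control, 82.3 ± 1.91 in Cdk1-i and 92.9 ± 8.03 in fzr, with an exact permutation p of 0.267 over the 3 genotypes. The fzr mean includes 98.6 in replicate 2, from the broad peak with its summit inside Hsc70-4, beside 87.2 in replicate 1. The percentile of grp was 88.0 ± 8.61 in control, 59.1 ± 23.2 in Cdk1-i and 76.0 ± 4.08 in fzr, with an exact permutation p of 0.200. By percentile, both Cdk1-i libraries were below both controls at both genes, at tefu by as little as 83.7 against 83.9 and with the opposite order by fold enrichment. This order by percentile held for 22.1% of the 3550 protein-coding genes with a 5' end peak in all 6 libraries, while 19.0% were above. Both fzr libraries were below the controls at grp alone (28.4% of these genes, with 8.06% above), and above Cdk1-i at tefu alone (12.0%, with 36.1% below). The mean over tefu and grp changed by −16.6 percentile points in Cdk1-i and by −2.87 in fzr against the control, and the median of all such genes by −0.00961 and −2.27. Between fzr and Cdk1-i the mean over both genes differed by 13.7 points, and the median of all genes by −1.98. These means rest largely on grp in 1 library, since without Cdk1-i replicate 1 the first becomes −9.06 and the last 6.20, and without Cdk1-i replicate 2 the last becomes 21.2. That of fzr against the control lay between −4.56 and −1.17 when single libraries were left out, the extremes being without control replicate 2 and without control replicate 1. It was −1.47 without fzr replicate 1 and −4.26 without fzr replicate 2, which takes out the broad peak at tefu.

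Most regions of the control discs were found again in the other genotypes. Of the 12 regions in the 10 windows that had a peak in both control libraries, 10 had a peak in both Cdk1-i libraries (88.3% genome-wide) and 8 in both fzr libraries (70.5% genome-wide). The shares at these genes were 83.3% and 66.7%. The count for fzr depends on its replicate 2, the library with the fewest peaks, and without it all 14 regions then found in both controls were kept in the remaining fzr library, beside 85.4% genome-wide. The rise in regions arose in part because wide peaks of fzr replicate 2 joined neighbouring sites at tefu and at the grp intron at 10519 bp. Without that library these sites were counted apart, and a region had to be present in only the remaining fzr library. Without fzr replicate 2, 12 regions had a peak in all remaining lists. Of these, 11 did not overlap between fzr and Cdk1-i, beside 78.1% genome-wide, a higher share than before because a single library has to lie outside the range of a pair. Between the 2 libraries of a genotype, the percentile of the 8 regions differed by a median of 1.99 points in control, 1.32 in Cdk1-i and 3.46 in fzr, while over all regions these differences were 7.48, 4.06 and 8.54 points. This comparison is not like for like, because most of the 8 regions ranked high in every list, where percentiles have less room to differ. At the grp 5' end the Cdk1-i values were 42.8 and 75.5.

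A wider list of 34 other genes of DNA damage signalling and repair showed how far the 5' ends of the pathway as a whole were covered. A 5' end peak was present in all 6 libraries at 7 of them (20.6%), in none at 20 (58.8%) and in 1 to 5 libraries at the other 7, beside 25.5% in all 6 and 49.0% in none over all protein-coding genes. By summit, 3 of the 34 genes (8.82%) had a peak in all 6 libraries and 22 (64.7%) in none, beside 18.4% and 55.1%. The genes with a peak in all 6 libraries were mus304, the partner of ATR, Claspin, His2Av, the histone variant phosphorylated at breaks, CG3448, Parp1, the nuclease gene mus81 and RPA1, a subunit of the single-strand binding protein. Of the 9 checkpoint genes 3 belonged to this class, of the 3 end-joining genes 1 and of the 13 other repair genes 3. Of the 9 genes of homologous recombination, 0 did (25.5% of all genes), and 7 had no 5' end peak in any library (49.0% of all genes), namely spn-A, okr, spn-B, spn-D, CtIP, tos and Blm. Brca2 had a peak in both Cdk1-i libraries and fzr replicate 1, at percentiles of 97.6, 98.6 and 98.5, and none in the control libraries or fzr replicate 2, and Xrcc2 had one in control replicate 1 alone. Among the other groups, Rad9, Hus1-like, Rad17, mus101, DNAlig4, mei-9, mus201, Xpc, Xpd, Fancd2, FANCI, mus312 and RPA3 had none in any library, and Rad1, mu2, PolQ, Gen and RPA2 had one in 1 to 4 libraries.

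Of the 7 genes of the wider list with a peak in all 6 libraries, 1 did not overlap between Cdk1-i and control and 3 between fzr and control, beside 41.2% and 36.5% of all protein-coding genes with such a peak. His2Av was lower in both genotypes, with percentiles of 92.7 and 91.5 in control, 89.8 and 87.2 in Cdk1-i, and 87.7 and 76.5 in fzr. mus304 was higher in fzr alone, with 40.8 and 56.7 in control, 31.0 and 60.9 in Cdk1-i, and 75.2 and 88.6 in fzr. Claspin was lower in fzr, with 73.6 and 62.7 in control, 66.7 and 57.7 in Cdk1-i, and 50.2 and 41.6 in fzr. Between fzr and Cdk1-i, 3 of the 7 genes did not overlap (48.0% of all), namely mus304, which was higher in fzr, and Claspin and CG3448, which were lower. A summit lay within 500 bp of the 5' end in all 6 libraries at mus304, in 2 at CG3448 and in none at His2Av and Claspin. The values of His2Av, Claspin and, in most libraries, CG3448 are thus those of peaks centred farther away.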

How the data were processed

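ATAC-seq peak lists of 6 wing disc libraries were used, 2 for each of 3 genotypes, grouped by the sample labels. Per the paper's methods, the authors ran the nf-core/atacseq pipeline, with BWA-MEM for alignment against dm6, removal of blacklisted regions and MACS2 peak calling for each library. The deposited fold enrichment is a ratio of the signal to the local background. The deposited −log10 p and −log10 q values and the peak score, which follows −log10 q, come from the same caller. The lowest −log10 q of a list was 2.00 to 2.16. The authors also counted reads and ran DESeq2, and those comparisons were not used here. No read counts were used, so the depth of the libraries is unknown and no count model was fitted. In all 6 libraries the 200 bp before annotated 5' ends held more summits (2111 to 2801) than the 200 bp after them (159 to 320), as a check of the build.

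The members and gene lists were chosen with earlier results of these data known. The genes named are the 10 members, genes whose 5' ends share their windows, and the genes of the wider list that lacked a 5' end peak in some library or whose groups did not overlap. Parp1, mus81, RPA1 and the markers ci and hth fall outside this rule and were named after their values were seen. mRpL40 also falls outside it and was named to give the position of a region in the Irbp window. Gene positions came from the Ensembl 115 annotation, and reference sequences from the RefSeq dm6 assembly. Windows holding more than 30 untranslated bases were not printed. Peaks overlapping by at least 1 bp were merged into regions across lists, and each region took the highest percentile of fold enrichment that it had in a list. A 5' end peak overlapped 500 bp on either side of the outermost start. Groups were called not overlapping where both libraries of one lay above both of the other, and an exact permutation test (two-sided) was run over the 15 groupings of libraries. Each p-value is the share of these 15 groupings in which the variance between group means was at least that of the genotypes. It rests on 2 libraries a genotype, and peaks and genes are not replicates.

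Alternatives were ranking by −log10 p, a −log10 q of at least 5, 27119 peaks in every list, sharing 0.5 of the shorter peak's length, gene bodies alone, a reach of 250 or 1000 bp, any transcript start, percentiles within the chromosome arm, the genotypes given by the names of the lists, a replicate block and leaving out each library. A 5' end defined by the peak summit was added after the data were seen. The scripts were tested on simulated data. Software versions were Matplotlib 3.10.9, SciPy 1.17.1, NumPy 2.4.6 and Python 3.11.15.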

Additional observations from a re-analysis of the deposited data

Results flagged for a closer look

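The region in the window of rad50, 6033 bp from its 5' end and next to the start of CG10344, had both Cdk1-i libraries below and both fzr libraries above the control by percentile, with a mean percentile in fzr that was 6.94 points above that in Cdk1-i. By fold enrichment Cdk1-i overlapped the control (9.94 and 9.09 against 9.46 and 8.75), and only fzr lay above it. The difference between the genotypes was not tested beyond the exact permutation test over the 3 genotypes, which gave the smallest p that 15 groupings allow, 0.0667. The direction was the same when peaks were ranked by −log10 p (9.50 points), at a −log10 q of at least 5 (7.24), with equal numbers of peaks (9.77) and within the chromosome arm (7.02), and it was the opposite (−6.94) if the names of the lists, rather than the labels, give the genotypes.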

How the results depend on the processing

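Over 18 alternatives, 123 of 150 values were labelled unchanged. Mean 5' end changes had to stay within the replicate spread, and tefu and grp taken singly had to keep their direction in Cdk1-i against control. Counts had to stay within a set ratio of the main count, so that 4 regions in place of 6 passed. Some values were fixed by construction, so this total does not measure stability. The genotypes given by the names of the lists turned the mean 5' end change of tefu and grp into −2.87 for Cdk1-i, −16.6 for fzr and −13.7 between fzr and Cdk1-i, and reversed tefu (p 0.267 by the exact permutation test). A reach of 250 bp gave 1 gene with a peak in all 6 libraries and changes of −28.9 and −12.1, and so did the summit definition added after the data were seen (1 gene, −28.9 and −12.1), both resting on grp alone. A reach of 1000 bp gave −5.62 for fzr and reversed tefu (p 0.267), since it includes the site inside Hsc70-4. With any transcript start, the change was −0.997 in Cdk1-i and −0.0779 between fzr and Cdk1-i, and grp reversed (exact permutation p 0.467). Equal numbers of peaks gave −0.666 for fzr and 21.8 between fzr and Cdk1-i. Asking that 0.5 of the shorter length be shared left 1 gene with a peak in all 6 libraries. Gene bodies alone left 11 regions, of which 5 were in all lists. Of these, 3 did not overlap between fzr and Cdk1-i, beside 51.7% genome-wide. Of 7 control regions, 6 were kept in Cdk1-i (88.3% genome-wide) and 5 in fzr (70.5% genome-wide).

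Leaving out single libraries gave changes of −24.1 to −9.06 (Cdk1-i), −4.56 to −1.17 (fzr) and 6.20 to 21.2 (between them). The counts of regions that did not overlap cannot be set beside the main ones here, because a genotype with 1 library overlaps less often by construction. Control regions kept numbered 10 to 12 in Cdk1-i and 8 to 14 in fzr. Genome-wide shares kept were computed only without fzr replicate 2, at 88.3% and 85.4%. The exact permutation p lay between 0.0667 and 0.533 at tefu and at grp. Under the replicate block, which asks that both same-numbered pairs move the same way, 6 regions passed in each comparison, which says nothing on stability because a region whose groups do not overlap passes it by construction. The replicate numbers were not shown to pair libraries, since the deviations of same-numbered libraries correlated across regions at 0.126, 0.304 and 0.0269, regions are not independent, and there are only 2 pairs. With 2 libraries a genotype and unknown depth, weak peaks near the cutoff limit every statement on a missing peak.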
